A study of Mus musculus with 24 samples.

Results

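CFP1 peaks of wild-type (WT) group 3 innate lymphoid cells (ILC3s) were placed within the H3K4me3 domains of the same cells. The libraries were chosen by their labels alone: all 6 WT libraries made with an antibody to CFP1 and all 6 WT libraries made with an antibody to trimethylated lysine 4 of histone H3 (H3K4me3), 12 of the 24 libraries of the series. On the 19 autosomes and the X chromosome they held 35761 CFP1 peaks and 87424 H3K4me3 peaks, out of 234820 peaks in all 24 lists. Each CFP1 list was set against the H3K4me3 list of the same subset and replicate number, which gave 6 pairs.

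The cells came from the lamina propria of the mouse small intestine and were sorted into CCR6+, NKp46+ and DN subsets, with 100000 cells per library. Genotypes were Cxxc1flox/flox with no Cre named (here WT) and Cxxc1flox/flox with a Cre (here KO); both genotypes carry the floxed Cxxc1 alleles. Mice of 6 to 8 weeks are given in the labels; since the protocols also mention young and aged mice and a medium for culture, neither age nor handling is settled. CUT&Tag was used throughout: an antibody brings a transposase to the chromatin it binds, and the released fragments are sequenced. No source used here says that replicate numbers stand for separate mice, so the p-values below refer to the spread among these libraries, part or all of which may be technical.

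CFP1, the product of Cxxc1, reads DNA through a CXXC zinc finger that prefers unmethylated CpG dinucleotides. It is a subunit of the SET1 (COMPASS) complexes, which place H3K4me3 at the starts of active genes, and CpG islands, the CpG-rich stretches over many mammalian gene starts, are where CFP1 is best known to sit. In ILC3s, lymphocytes of the gut wall known for interleukin-22 and interleukin-17, wide H3K4me3 domains lie over many of the genes that define the cells.

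Replicate 1 and replicate 2 differed in how long and wide their lists were. Throughout, values of the 3 libraries of a replicate are given in the order CCR6+, NKp46+, DN. WT CFP1 lists held 5226, 4749 and 4574 peaks in replicate 1, and 7983, 5526 and 7703 in replicate 2. WT H3K4me3 lists held 12838 to 15397 peaks. The KO CFP1 lists, which serve here as the background of the same antibody, held 1312, 714 and 1131 peaks in replicate 1 and 1250 peaks in CCR6+ cells of replicate 2. The libraries labelled KO NKp46+ replicate 2 and KO DN replicate 2 stood apart from these with 4891 and 8881 CFP1 peaks, the latter more than any WT list, so WT and KO are compared below with and without these 2. The lists hold no read counts, so depth is unknown, and a missing peak means only that none was called. The labelled cell type was checked on H3K4me3 at gene starts. For comparison, of all 17274 coding genes with a start in the reference, 7369 were marked in 6 of 6 WT libraries and 8353 in 0 of 6. Of 18 ILC3 cytokine, receptor and surface genes with a start in the reference 11 were marked in 6 of 6 WT libraries, among them Il7r, Il2rg, Il23r and Kit, and 3 in 0 of 6, the cytokine genes Il22, Il17a and Csf2. Il17f was marked in 1 library and Ccr6 in 2. Of 13 ILC3 transcription factors 9 were marked in 6 of 6, among them Gata3, Id2 and Tcf7, and Rora in 0 of 6. No library had H3K4me3 at any of 6 B cell, 9 myeloid, 8 epithelial or 6 stromal and endothelial marker genes. Markers of other lymphocytes were in part marked: 2 of 9 T cell markers in 6 of 6 (Cd3e and Zap70) and 1 in 0 of 6, 0 of 9 ILC2 markers in 6 of 6 and 5 in 0 of 6, and 1 of 10 NK and ILC1 markers in 6 of 6 (Itga1) and 5 in 0 of 6. The part of other lymphocytes in these lists was not tested.

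The upstream sequences of 6 genes show the range of promoters inside these domains. H2az2, which encodes a histone H2A.Z variant, Gbe1, the glycogen branching enzyme, and Ensa, an inhibitor of a mitotic phosphatase, carried the CFP1 peaks that stood near the top of every WT list. Egf, epidermal growth factor, Zfp729a, a zinc finger gene, and Ctso, a lysosomal protease, had H3K4me3 peaks near the top of the WT lists and a CFP1 peak in 0 of 6 WT libraries. Each sequence is the 250 b before the annotated start, 5′ to 3′ on the strand of the gene, from RefSeq on GRCm38.p6, with CG in capitals, a motif that reads the same on both strands.
H2az2 (chr11:6444444-6444693, minus strand): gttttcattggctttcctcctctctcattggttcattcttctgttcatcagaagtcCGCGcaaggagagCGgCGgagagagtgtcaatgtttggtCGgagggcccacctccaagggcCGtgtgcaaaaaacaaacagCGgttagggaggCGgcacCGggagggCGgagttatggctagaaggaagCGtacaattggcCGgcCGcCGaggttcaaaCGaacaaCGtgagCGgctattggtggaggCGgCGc
Gbe1 (chr16:70313699-70313948, plus strand): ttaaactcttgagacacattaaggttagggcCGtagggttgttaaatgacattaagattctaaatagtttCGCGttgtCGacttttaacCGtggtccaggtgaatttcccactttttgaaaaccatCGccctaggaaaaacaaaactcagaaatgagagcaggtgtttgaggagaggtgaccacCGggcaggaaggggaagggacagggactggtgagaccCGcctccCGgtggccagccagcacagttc
Ensa (chr3:95624730-95624979, plus strand): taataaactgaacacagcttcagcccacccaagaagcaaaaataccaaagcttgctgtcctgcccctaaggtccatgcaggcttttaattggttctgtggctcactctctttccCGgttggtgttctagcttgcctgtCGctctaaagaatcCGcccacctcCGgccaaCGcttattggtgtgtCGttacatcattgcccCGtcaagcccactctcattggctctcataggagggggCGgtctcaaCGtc
Egf (chr3:129725087-129725336, minus strand): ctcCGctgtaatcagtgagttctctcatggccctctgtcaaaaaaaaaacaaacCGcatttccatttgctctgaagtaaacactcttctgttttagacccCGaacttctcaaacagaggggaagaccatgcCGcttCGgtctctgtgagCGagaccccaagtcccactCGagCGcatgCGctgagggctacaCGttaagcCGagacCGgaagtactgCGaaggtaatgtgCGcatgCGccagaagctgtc
Zfp729a (chr13:67637782-67638031, minus strand): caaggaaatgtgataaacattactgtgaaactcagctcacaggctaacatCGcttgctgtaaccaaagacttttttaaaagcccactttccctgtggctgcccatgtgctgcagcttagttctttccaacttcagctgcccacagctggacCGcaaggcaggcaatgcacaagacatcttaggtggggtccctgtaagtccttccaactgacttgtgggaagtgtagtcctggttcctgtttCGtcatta
Ctso (chr3:81932351-81932600, plus strand): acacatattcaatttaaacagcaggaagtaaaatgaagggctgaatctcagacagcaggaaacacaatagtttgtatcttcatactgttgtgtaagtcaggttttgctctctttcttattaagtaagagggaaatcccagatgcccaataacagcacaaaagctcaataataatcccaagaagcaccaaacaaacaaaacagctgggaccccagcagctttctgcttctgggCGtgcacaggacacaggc
These windows held 19 CG in H2az2, 9 in Gbe1, 9 in Ensa, 15 in Egf, 3 in Zfp729a and 1 in Ctso. The observed over expected CpG ratio, the number of CG found over that expected from the C and G content, was 0.963, 0.618, 0.551, 0.895, 0.210 and 0.0911 in the same order. The Egf window, with no CFP1 peak called, held more CG than the Gbe1 and Ensa windows. For comparison, 95.5% of the 300 b windows (250 b before to 50 b after the start) of all 21045 coding starts held at least 1 CG, with a median of 13 and a median ratio of 0.574. In the 3 libraries of replicate 1 and then of replicate 2, the CFP1 summit at H2az2 lay 79, 24, 79, 115, 165 and 115 b downstream of the start, just past the printed stretch. At Gbe1 it lay 225 to 355 b and at Ensa 122 to 200 b downstream, so none of these summits is inside the window whose CG was counted. CFP1 was also called in 6 of 6 KO libraries at H2az2 and Gbe1 and in 5 at Ensa.

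CFP1 peaks were narrower than H3K4me3 peaks in every WT library. Median CFP1 widths were 552, 538 and 562 b in replicate 1, and 654, 605 and 636 b in replicate 2. Median H3K4me3 widths were 976, 796 and 966 b in replicate 1 and 1167, 1193 and 1187 b in replicate 2. The 2 sets of medians did not overlap. The log2 ratio of the medians was −0.81 ± 0.14 (SD, n = 6 pairs), lower for CFP1 in 6 of 6 pairs. An exact two-sided permutation of the antibody labels within each subset gave p = 0.00926, the smallest value this design allows, and an adjusted p of 0.0402 over 9 results (Benjamini-Hochberg). In the KO lists the log2 ratio was −0.92. The upper ends of the distributions differed too: the 90th percentile was 897 to 1122 b for CFP1 and 1401 to 2028 b for H3K4me3. Peaks of 2000 b or more made up 0 to 0.376% of CFP1 lists and 1.31 to 10.5% of H3K4me3 lists. CFP1 lists covered 2.81 to 5.80 Mb and H3K4me3 lists 10.9 to 19.5 Mb, and CFP1 peaks lay over 15.9 to 24.5% of the H3K4me3 bases.

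**Figure D1:**
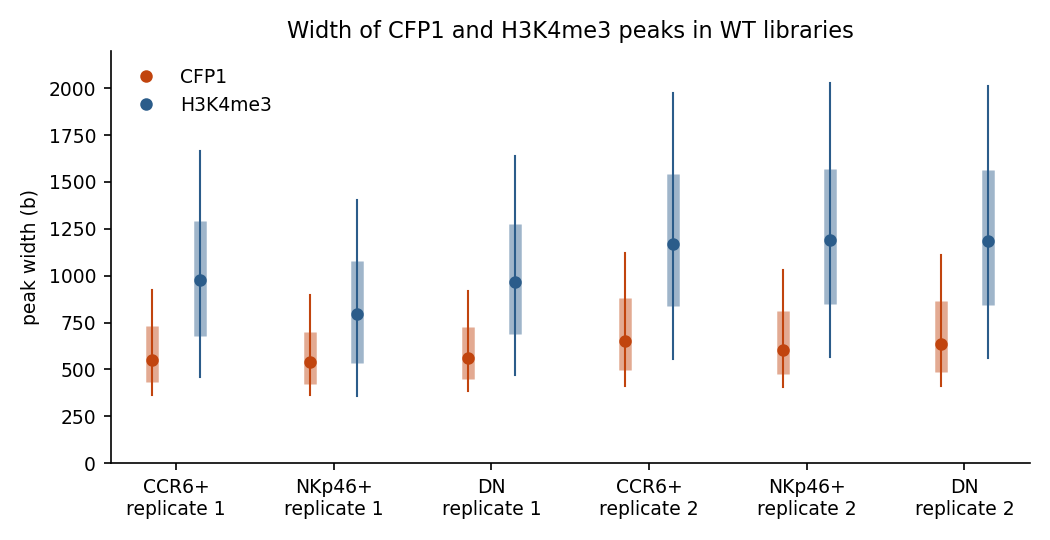
Width of CFP1 (orange) and H3K4me3 (blue) peaks in base pairs in each of the 6 WT library pairs; points are medians, thick bars run from the 25th to the 75th percentile and thin lines from the 10th to the 90th. CFP1 medians of 538 to 654 b sit below all H3K4me3 medians, which span 796 to 1193 b.

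Most CFP1 summits, the positions of highest signal, fell inside an H3K4me3 peak. The share was 98.0%, 95.8% and 96.6% in replicate 1, and 74.8%, 83.0% and 76.2% in replicate 2, so every replicate 1 library was above every replicate 2 library. CFP1 peaks that lay wholly inside an H3K4me3 peak made up 94.2%, 83.6% and 92.5% of the replicate 1 lists and 54.6%, 66.9% and 57.4% of the replicate 2 lists. For the peaks called with the same antibody in KO cells the shares were 98.3%, 94.96% and 98.2% in replicate 1 and 82.2%, 82.2% and 72.6% in replicate 2. The WT mean was 87.4% and the KO mean 88.1%, a difference of −0.692 percentage points (exact two-sided test with genotypes permuted inside each subset, p = 0.926). Without the 2 long KO lists the difference was −6.04 points (same exact test, p = 0.370). Over the CFP1 lists of both genotypes the share thus ran from 72.6% to 98.3%; the test does not show that the genotypes were alike.

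The number of CFP1 summits outside H3K4me3 was 107, 198 and 155 in replicate 1 and 2010, 942 and 1832 in replicate 2. Few of them were at gene starts: 1.95 to 6.74% lay within 1000 b of a coding start, against 62.3 to 79.7% of the summits inside. Their median distance to the nearest H3K4me3 peak was 22.4 to 91.0 kb. Fold enrichment, the authors' value for each peak, was turned into a percentile rank within its own list, with 100 for the strongest peak. Median ranks of CFP1 peaks inside and outside were 50.9 and 9.44, 51.8 and 13.1, and 51.6 and 12.1 in replicate 1. In replicate 2 they were 57.6 and 28.3, 54.6 and 29.7, and 57.5 and 27.1. Peaks outside were thus weak for their list in all 6 libraries. The difference was 34.1 ± 6.70 rank points (SD, n = 6, higher inside in 6 of 6; exact two-sided sign-flip test, p = 0.03125, the smallest that 6 pairs allow, adjusted p = 0.0402). It was 23.3 in KO cells. Inside peaks were also wider than outside peaks, by 141 b on average (6 of 6; exact sign-flip test, p = 0.03125, adjusted over 7 added comparisons 0.0365). Of 10 equal groups by CFP1 rank, the strongest had 100% of summits inside in the 3 replicate 1 libraries and 94.8 to 96.4% in replicate 2. In the weakest group the shares were 80.6 to 89.1% and 52.3 to 65.8%.

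CFP1 summits were spread over more of the H3K4me3 domain than the summits of the mark itself. Position was measured as depth, the distance from a summit to the nearer edge of its H3K4me3 peak over the peak's width, which is 0 at an edge and at most 0.5 at the centre. Median depths of CFP1 summits were 0.366, 0.366 and 0.363 in replicate 1 and 0.314, 0.320 and 0.319 in replicate 2. H3K4me3 summits of the same peaks had depths of 0.398, 0.380 and 0.398 in replicate 1 and 0.388, 0.394 and 0.394 in replicate 2. CFP1 lay nearer the edge in 6 of 6 pairs, by 0.050 ± 0.027 of the width (SD, n = 6; exact sign-flip test, p = 0.03125, adjusted p = 0.0402). Both the edges and the H3K4me3 summits came from the H3K4me3 signal. A lower depth for summits of any other list was thus favoured by construction. How much of the difference came from this was not tested. Within replicate 1 the difference was −0.0268 and within replicate 2 −0.0740. In KO cells it was −0.0408, and the WT and KO differences did not pass a test against each other (exact permutation, p = 0.528). The central 50% of the H3K4me3 peak held 81.6%, 80.4% and 81.9% of CFP1 summits in replicate 1 and 66.2%, 68.7% and 67.3% in replicate 2, against 86.5 to 92.6% of H3K4me3 summits. Nearness to the edge was relative, since the median distance of a CFP1 summit from that edge was still 362 to 433 b.

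**Figure D2:**
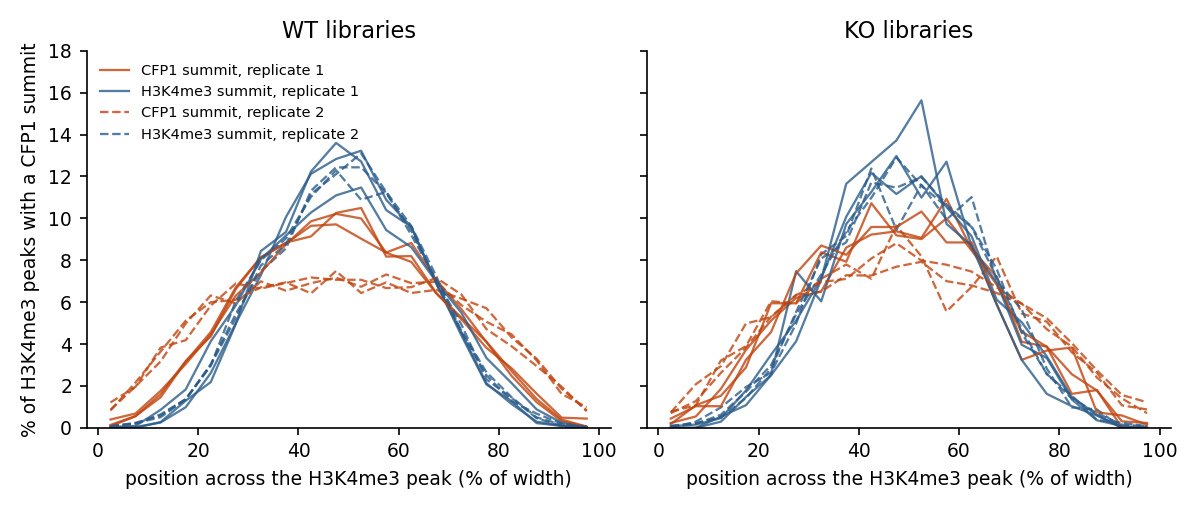
Share of H3K4me3 peaks with a CFP1 summit (y axis, %) whose CFP1 summit (orange) or own summit (blue) falls in each 5% step across the H3K4me3 peak (x axis, % of peak width), 1 line per library; WT at left, KO at right, replicate 1 solid and replicate 2 dashed. H3K4me3 summits gather at the middle, while the CFP1 lines are lower and broader, most of all in WT replicate 2, where 66.2 to 68.7% lie in the central 50%.

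The 2 summits in a domain were close together in replicate 1 and farther apart in replicate 2. The median gap between them was 79, 89 and 80 b in replicate 1 and 136, 142 and 138 b in replicate 2. Within 200 b of the H3K4me3 summit lay 81.0%, 78.9% and 82.3% of CFP1 summits in replicate 1 and 61.8%, 60.4% and 62.0% in replicate 2. The strength of a CFP1 peak followed that of its H3K4me3 peak only loosely: Spearman's rho across peaks within a library, given as a description since peaks of a library share its depth, was 0.339, 0.363 and 0.378 in replicate 1 and 0.248, 0.203 and 0.230 in replicate 2. More than 1 CFP1 peak in an H3K4me3 peak was rare, at 0.394 to 1.31% of the H3K4me3 peaks with CFP1, and the number was never above 2. Among 183 regions where this was seen in any WT library, Mnt, which encodes a partner of MAX that opposes MYC, was the one region with 2 CFP1 peaks in 6 of 6 libraries (chr11:74829926-74832921, median H3K4me3 width 2922 b). Arid1b, a subunit of the BAF chromatin remodeller, Caprin1, an RNA-binding protein, and Rrbp1, a ribosome-binding protein of the endoplasmic reticulum, had 2 in 4 libraries each.

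At coding gene starts the CFP1 summit lay upstream of the H3K4me3 summit. These positions used the 2773 to 3814 H3K4me3 peaks per library that held a coding start and a CFP1 summit. Median positions of CFP1 summits were 90, 82 and 81 b downstream of the start in replicate 1 and 89, 76 and 88 b in replicate 2, a narrow range over all 6 libraries. Median positions of H3K4me3 summits were 127, 86 and 115 b in replicate 1 and 200, 209 and 201 b in replicate 2. The signed difference was −72 b on average and negative in 6 of 6 pairs (exact sign-flip test, p = 0.03125, adjusted over the 7 added comparisons 0.0365). The KO lists had the same order, with mean positions of 40.5 b for CFP1 and 120.9 b for H3K4me3 summits. The offset was thus not particular to WT cells. Downstream of the start lay 68.5%, 67.3% and 65.8% of CFP1 summits in replicate 1 and 62.5%, 60.7% and 63.3% in replicate 2, against 77.5%, 71.2% and 75.2%, and 83.2%, 83.3% and 83.4%, of H3K4me3 summits. The difference of −14.3 percentage points had the same sign in 6 of 6 pairs (exact sign-flip test, adjusted p = 0.0365). In KO cells 52.3 to 61.0% of CFP1 summits and 62.8 to 80.8% of H3K4me3 summits were downstream.

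The absolute distance to the start did not differ beyond the spread between pairs. It was 163, 157 and 158 b for CFP1 and 165, 137 and 161 b for H3K4me3 in replicate 1, and 193, 192 and 192 b against 225, 233 and 224 b in replicate 2. The difference was −15 ± 23.6 b (SD, n = 6; exact sign-flip test, p = 0.156, adjusted p = 0.176), with 1 pair positive and 5 negative. CFP1 summits were spread to both sides of the start, with a separate upstream rise in replicate 2 only. In replicate 1 the steps of 50 b between −250 and 0 b held 4.22 to 4.98%, with no dip before the 9.12% from 0 to 50 b. In replicate 2 the step from 150 to 200 b downstream held 11.4% of them, the step from −100 to −50 b (upstream) 3.41%, and the step from −250 to −200 b 5.14%. For H3K4me3 the fullest step in replicate 2 was 200 to 250 b downstream with 15.9%, and the step from −250 to −200 b held 2.35%. In KO cells the median CFP1 summit was 15 to 84 b downstream, with a mean over libraries of 40.5 b against 84.3 b in WT, and 55.3% of KO summits were downstream against 64.7% in WT. Exact permutation of the genotype labels gave p = 0.0185 and 0.00926 for these, and neither passed adjustment over 15 comparisons (0.0694 for each).

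**Figure D3:**
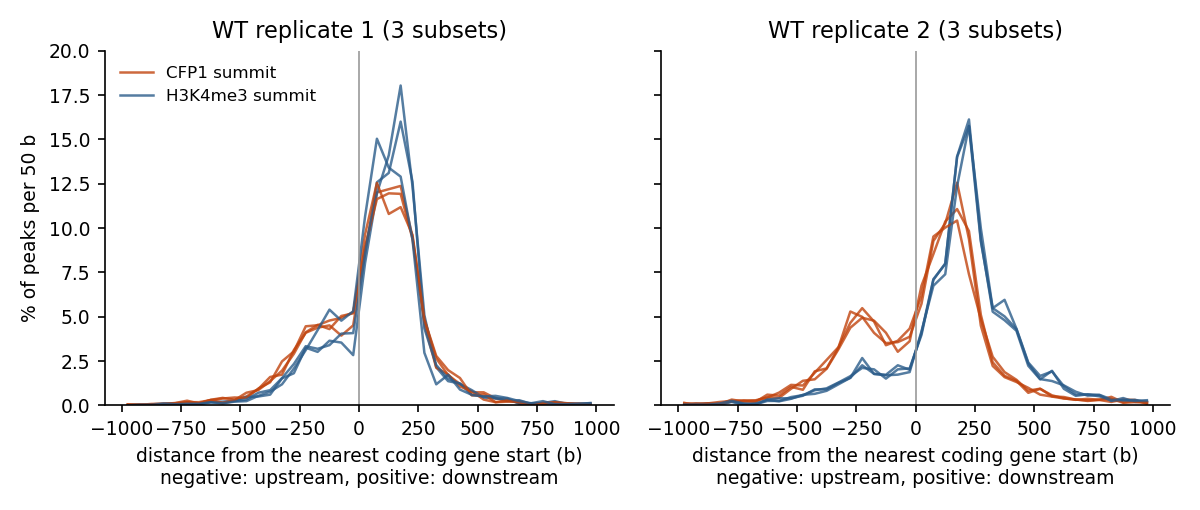
Position of CFP1 (orange) and H3K4me3 (blue) summits relative to the coding gene start in steps of 50 b (x axis, negative upstream), as the share of H3K4me3 peaks that hold a start and a CFP1 summit (y axis, %), 1 line per WT subset. H3K4me3 summits crowd downstream, at 200 to 250 b in replicate 2, while 19.9 to 24.03% of CFP1 summits lie 0 to 250 b upstream.

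CFP1 occupied about 1 H3K4me3 peak in 3. An H3K4me3 peak counted as having CFP1 when a CFP1 peak of the paired library overlapped it by at least 1 b. The share was 33.4%, 35.6% and 32.0% in replicate 1 and 40.7%, 30.1% and 39.2% in replicate 2, with a mean of 35.1%. In KO cells it was 10.98%, 4.09% and 8.94% in replicate 1 and 5.77%, 22.5% and 40.1% in replicate 2, the last 2 being the long lists. Peaks with CFP1 were wider, stronger, more often at a gene start and richer in CpG than peaks without in 6 of 6 pairs, as set out below. WT and KO were compared on 15 such measures by exact permutation within subsets. With exact permutation, none passed adjustment with all 6 KO libraries (smallest adjusted p = 0.0694, with 5 of 15 at an unadjusted p under 0.05) or without the 2 long KO lists (smallest adjusted p = 0.139). Of the WT CFP1 peaks, 75.8 to 88.1% overlapped a CFP1 peak of any KO library and 30.2 to 44.6% one of the 4 short KO lists.

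Width separated the H3K4me3 peaks with and without CFP1. Median widths with and without were 1233 and 823 b, 1036 and 648 b, and 1209 and 828 b in replicate 1. In replicate 2 they were 1380 and 1038 b, 1438 and 1095 b, and 1399 and 1059 b. The log2 ratio was 0.50 ± 0.12 (SD, n = 6, 6 of 6; exact sign-flip test, p = 0.03125, adjusted p = 0.0402), and it was 0.49 in KO cells. With the CFP1 peaks that overlapped any KO CFP1 peak removed, it fell to 0.145 and kept its sign in 6 of 6 pairs. The removal took 75.8 to 88.1% of the WT CFP1 peaks. H3K4me3 peaks that lost their CFP1 peak in this way were then counted as without CFP1, which by itself can lower the ratio. When each H3K4me3 list was cut into 10 equal groups by width, the mean share with CFP1 rose from 8.81% in the narrowest group to 57.6% in group 9 and 57.0% in the widest. The narrowest group held 1.83% with CFP1 in replicate 1 and 15.8% in replicate 2. A wider peak offers more bases to overlap, so the comparisons of gene starts and CpG below were repeated within 5 groups of equal size by width.

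Strength of the mark separated them clearly in replicate 1 and weakly in replicate 2. Median H3K4me3 ranks with and without CFP1 were 70.4 and 36.6, 69.4 and 36.4, and 70.0 and 37.5 in replicate 1. In replicate 2 they were 54.3 and 46.1, 53.8 and 47.8, and 55.3 and 45.6. The difference was 20.6 ± 13.8 rank points (SD, n = 6, 6 of 6; exact sign-flip test, p = 0.03125, adjusted p = 0.0402), 33.1 within replicate 1, 7.97 within replicate 2 and 14.2 in KO cells. Among H3K4me3 peaks that held a gene start it was 6.26 (exact sign-flip test, adjusted p = 0.281), so the call was lost there. Across 10 groups by rank the share in replicate 1 rose from 3.55% to 58.3%, whereas in replicate 2 it was 19.8% in the weakest group, 43.6% in group 6 and 37.1% in the strongest. Width and rank were not the same order: the widest group of H3K4me3 peaks, with median widths of 1616 to 2370 b, had median ranks of only 29.3 to 42.4, against 66.7 to 78.5 in group 5.

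**Figure D4:**
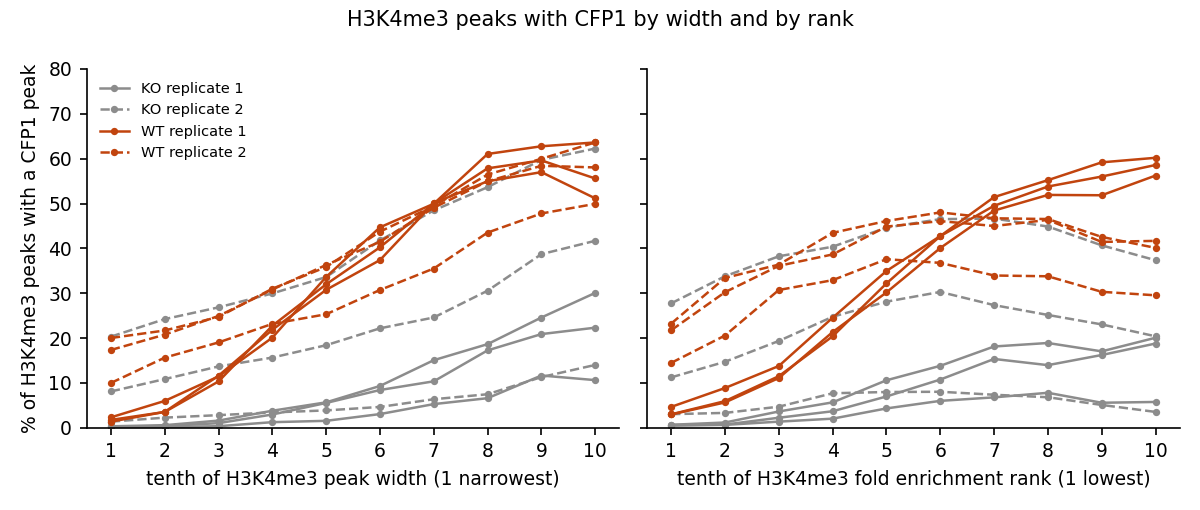
Share of H3K4me3 peaks with a CFP1 peak (y axis, %) in 10 equal groups by peak width (left) and by fold enrichment rank within the list (right), 1 line per library, WT orange and KO grey, replicate 1 solid and replicate 2 dashed. The share rises with width in all WT libraries up to group 8, and by rank the replicate 1 mean reaches 58.3% in the strongest group, while the replicate 2 mean turns down after group 6 (43.6%); the KO line near the WT lines is the 8881-peak list.

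Peaks with CFP1 lay over coding gene starts more often. Shares with and without CFP1 were 76.9% and 40.9%, 76.0% and 45.5%, and 79.0% and 45.8% in replicate 1. In replicate 2 they were 62.9% and 48.3%, 62.5% and 47.9%, and 61.9% and 47.3%. The difference was 23.9 ± 10.4 percentage points (SD, n = 6, 6 of 6; exact sign-flip test, p = 0.03125, adjusted p = 0.0402), 33.3 within replicate 1, 14.6 within replicate 2 and 19.7 in KO cells. As a mean over the 5 groups by width it was 9.32 points, and that mean was positive in 6 of 6 pairs. With the CFP1 peaks that overlapped any KO CFP1 peak removed it was 14.6 points, and 13.7 points with those of the 4 short KO lists removed. Here too, H3K4me3 peaks that lost their CFP1 peak were counted as without CFP1, which can lower the difference. In the widest of 5 groups by width 63.0% of peaks with a gene start and 43.1% of those without had CFP1. In the narrowest group the order differed between replicates: the shares with and without a start were 3.91% and 2.54%, 5.15% and 4.02%, and 4.29% and 2.05% in replicate 1, but 9.81% and 22.8%, 6.44% and 13.7%, and 8.58% and 21.04% in replicate 2. Among peaks with a coding start, those with starts on both strands, as at divergent gene pairs, made up 13.2 to 14.5% of the peaks with CFP1 and 4.75 to 7.20% of those without. That difference was 7.92 points (6 of 6; exact sign-flip test, adjusted p = 0.0365). In KO cells the shares were 13.8 to 19.2% with and 5.32 to 8.57% without CFP1, so the excess was not particular to WT. Read the other way, CFP1 was present in WT at 65.6% (51.3 to 73.7%) of peaks with starts on both strands, 42.8% (34.3 to 45.97%) of those with starts on a single strand and 24.03% (16.4 to 33.6%) of those with no coding start. In KO cells these means were 31.7%, 17.6% and 11.6%. In WT the peaks with starts on both strands were also wider than those with starts on a single strand, with medians averaging 1382 b against 1166 b.

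CpG content was higher in promoters under H3K4me3 peaks with CFP1. The observed over expected CpG ratio was taken over the 300 b RefSeq promoter window of each coding start in an H3K4me3 peak. Medians with and without CFP1 were 0.848 and 0.737, 0.853 and 0.755, and 0.856 and 0.748 in replicate 1. In replicate 2 they were 0.842 and 0.742, 0.840 and 0.758, and 0.839 and 0.747. The 2 sets did not overlap, and the difference of 0.0988 ± 0.0108 (SD, n = 6, 6 of 6; exact sign-flip test, p = 0.03125, adjusted p = 0.0402) was present in both replicates, at 0.106 and 0.0915. Within groups of equal width it was 0.0760. It was 0.0707 in KO cells (WT against KO, exact permutation, p = 0.00926, adjusted over 15 comparisons 0.0694), and 0.0415 in WT after removal of CFP1 peaks shared with any KO list. After that removal, H3K4me3 peaks that lost their CFP1 peak were counted as without CFP1, which can lower the difference. Before it, GC content moved with the CpG ratio, at 63.3 to 64.1% with and 60.3 to 60.7% without CFP1 (difference 3.28 points, 6 of 6; exact sign-flip test, adjusted p = 0.0365).

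Across all coding starts the mark and CFP1 followed CpG in steps. The 21045 starts were cut into 5 equal groups of 4209 by CpG ratio. H3K4me3 covered 3.66%, 14.0%, 51.8%, 76.2% and 81.9% of starts from the CpG-poorest to the CpG-richest group (WT means). Of the covered starts, 9.38%, 20.1%, 36.5%, 49.0% and 59.9% were in an H3K4me3 peak with CFP1. Among starts without H3K4me3 a CFP1 peak within 500 b was seldom called: 0.132% in the poorest group and 4.83% (2.95 to 7.30% over libraries) in the richest. The windows differ, a whole H3K4me3 peak for covered starts and 500 b to either side for the others, so the 2 sets of shares stand side by side and were not tested against each other. In KO cells the mean share of covered starts with CFP1 went from 7.55% to 26.0%, and that of uncovered starts reached 1.93%. These means mix short and long lists. In the richest group the 4 short KO lists had 9.86 to 23.3% of covered and 0 to 1.47% of uncovered starts. The long lists of NKp46+ and DN cells had 36.4% and 57.0% of covered and 3.90% and 4.56% of uncovered starts. In the highest group CpG ratios started at 0.874, and in the lowest they ended at 0.186.

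**Figure D5:**
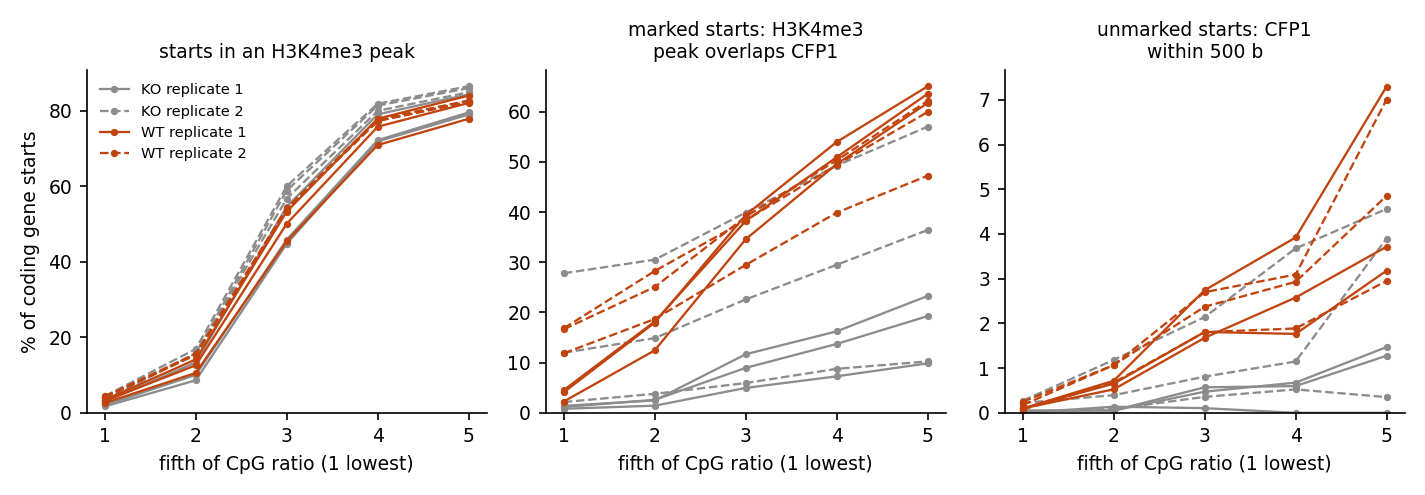
Coding gene starts in 5 equal groups by promoter CpG ratio (x axis, 1 lowest): share in an H3K4me3 peak (left), share of those starts whose H3K4me3 peak overlaps CFP1 (middle) and share of starts outside H3K4me3 with a CFP1 peak within 500 b (right), all in %, on separate y scales, 1 line per library, WT orange and KO grey. WT means climb from 9.38% to 59.9% in the middle panel, and no WT library passes 7.30% at the right.

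The share of regions with CFP1 went up with the number of libraries that carried the mark. H3K4me3 peaks of the 6 WT libraries merged into 18600 regions, of which 9192 (49.4%) overlapped CFP1 in at least 1 WT library. Regions marked in a single library overlapped CFP1 in 17.0% of cases and the 11163 regions marked in 6 of 6 in 66.6%. Median H3K4me3 widths were 455 b in the former and 1197 b in the latter, and wider regions offer more bases to overlap. Of these 11163, CFP1 was called in 0 of 6 libraries at 3731 and in 6 of 6 at 2329, with 889 to 1277 regions at each number between. From 0 to 6 libraries the median H3K4me3 width went from 1013.5 to 1439.5 b, the share with a coding start from 61.2% to 82.3% and the median CpG ratio from 0.713 to 0.856. The share with CFP1 in any KO library went from 10.1% to 97.8%, and in any of the 4 short KO lists from 0.456% to 68.1%. Median H3K4me3 ranks differed less, at 55.0 and 63.7. Few of these regions were particular to a subset: CFP1 was called in both CCR6+ libraries at 3906 regions and in no other WT library at 78 of them, with 14 of 3014 for NKp46+ and 38 of 3465 for DN. Regions called in all 3 subsets of a replicate and in no library of the other numbered 169 of 3221 for replicate 1 and 335 of 3490 for replicate 2.

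Among regions marked in 6 of 6 libraries that hold a coding start, H2az2 (chr11:6443518-6444776) had the highest CFP1 peaks, with a median CFP1 rank of 99.96. It was followed by the start shared by Azi2, an adaptor of innate immune signalling, and Zcwpw2 (chr9:118040244-118041613), and then by Gbe1 (chr16:70313595-70314891) and Ensa (chr3:95624618-95625812). Kat7, the histone acetyltransferase HBO1, at chr11:95309214-95310973, Rpl22l1, a ribosomal protein paralogue, Ubxn2a, a p97 cofactor, and Bbip1 with Shoc2 came next, with median ranks of 99.7 to 99.8. Their median H3K4me3 widths were 968 to 1568 b. CFP1 was also called in 6 of 6 KO libraries at H2az2, Azi2/Zcwpw2, Gbe1, Kat7 and Bbip1/Shoc2, in 5 at Ensa and Rpl22l1 and in 3 at Ubxn2a. Psma3, a proteasome subunit, was the next highest of the regions called in 6 of 6 KO libraries, with a median WT CFP1 rank of 99.7. The highest CFP1 peaks of WT cells were thus mostly also called in the KO lists. Presence in a KO list was general, at 97.8% of all 2329 regions with CFP1 in 6 of 6 WT libraries. The mean over those regions was 3.12 KO libraries.

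Among the regions with CFP1 in 0 of 6 WT libraries, those with the highest H3K4me3 ranks were chosen for that absence and are given as a description. Of all H3K4me3 peaks in the strongest of 10 groups by rank, 47.7% had CFP1 (WT mean). Egf (chr3:129724696-129725493) had H3K4me3 ranks of 98.7 to 99.99 and CFP1 in 0 of 6 WT and 0 of 6 KO libraries. The same held for Zfp729a, Ctso, Hikeshi, a nuclear import carrier of HSP70, Aars2, a mitochondrial alanyl-tRNA synthetase, Thumpd2 and Ttll4, a polyglutamylase, whose median H3K4me3 ranks were 99.2 to 99.5. Nars2, a mitochondrial asparaginyl-tRNA synthetase, was called in 0 of 6 WT and 1 of 6 KO libraries. All 8 were narrow, with median H3K4me3 widths of 407.5 to 876.5 b.

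The widest domains included both kinds. With CFP1 in 6 of 6 libraries, the widest was Tgif1, a homeodomain repressor of TGF-β signalling (median width of the largest peak in the region 4507 b). Brd2 with H2-DMa, a bromodomain protein and an antigen-loading chaperone, Pim1, a survival kinase induced by cytokines, Ubtf, a factor for ribosomal RNA transcription, Dusp6, a phosphatase of ERK, and Foxo3, a quiescence factor, followed at 3501.5 to 4443.5 b. Their median CFP1 ranks ran from 10.2 at Ubtf to 73.2 at Tgif1. CFP1 was also called in KO libraries, in 5 of 6 at Foxo3, 4 at Tgif1 and Brd2/H2-DMa, 3 at Pim1 and Dusp6 and 1 at Ubtf. With CFP1 in 0 of 6, the widest was Gpr183, the receptor for oxysterols that guides ILC3s to lymphoid tissue, at 3770 b. Snx18, a sorting nexin, Cytip, a regulator of lymphocyte adhesion, Gfi1, a transcriptional repressor of lymphocytes, Fam78a and Ptch1, the Hedgehog receptor, lay between 3289.5 and 3735.5 b. Not every library had wide peaks there. In the NKp46+ library of replicate 1 the largest peaks were 1541 to 2970 b at the 6 regions with CFP1 and 1009 to 2578 b at the 6 without. Gpr183 had 1454 b in that library and 1313 b in the DN library of replicate 1. H3K4me3 ranks were low at all 12, with medians of 2.63 to 14.8. Gpr183 had a CpG ratio of 0.443 and Ptch1 of 1.09, so wide domains without CFP1 were found at CpG-poor and CpG-rich starts.

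Gene by gene, 7369 coding genes had H3K4me3 over the start in 6 of 6 WT libraries. CFP1 was called in that peak in 6 of 6 libraries at 2070 of them (28.1%) and in 0 of 6 at 1865 (25.3%), with a median of 3 libraries. The median CpG ratio was 0.877 in the first group and 0.735 in the other, and the median H3K4me3 width 1464 and 1055 b. Gene lists are described below by their members among these 7369, with these shares as the background; the lists were not tested.

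Subunits of the SET1 (COMPASS) complexes were marked at all 7 members with a start in the reference. Of these, 4 of 7 had CFP1 in 6 of 6 libraries, against the background of 28.1%. These were Setd1a, a catalytic subunit, Wdr82, which tethers SET1 to RNA polymerase II, Rbbp5, a core subunit, and Hcfc1, a host cell factor. CFP1 ranks at Wdr82 were 87.6, 93.6 and 97.4 in replicate 1 and 80.6, 87.6 and 91.9 in replicate 2, high in every library. At Setd1a they were 32.9, 59.8, 80.9, 62.0, 67.6 and 69.1 in the same order, with the summit at −509 to −134 b from the start, negative being upstream. At Hcfc1 the summit lay at −1246 to −861 b, inside an H3K4me3 peak of 2221 to 3269 b. Dpy30 and Wdr5, both core subunits, had CFP1 in 3 of 6, and Bod1l, a SETD1A cofactor in DNA repair, in 0 of 6 with H3K4me3 peaks of 1493 to 2144 b. CFP1 was called at Setd1a, Wdr82, Rbbp5 and Hcfc1 in 2 of 6 KO libraries each. Of 5 marked MLL methyltransferases, partners and H3K4 demethylases 1 had CFP1 in 6 of 6, the demethylase gene Kdm5c, and 0 in 0 of 6, while Kmt2a had it in 5 and Men1 in 1. The other CpG readers and TET enzymes had CFP1 in 6 of 6 at 0 of 5 and in 0 of 6 at 0 of 5, with 2 libraries each at Tet2, Tet3 and Dnmt1, 3 at Kdm2b and 5 at Fbxl19. For these lists too the background was 28.1% for 6 of 6 and 25.3% for 0 of 6.

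RNA processing genes had the largest share of members with CFP1 in 6 of 6 among the lists with marked members. All 19 members with a start were marked in 6 of 6 libraries, and 13 of 19 had CFP1 in 6 of 6 against the background of 28.1%, with a median CpG ratio of 1.06 and a median width of 1820.5 b. At Hnrnpk, an RNA-binding protein of splicing and stability, CFP1 ranks were 95.1, 93.5 and 84.8 in replicate 1 and 88.3, 94.6 and 95.9 in replicate 2, with summits at −275 to −157 b, and CFP1 was called in 6 of 6 KO libraries. At Srsf6, a splicing factor, the ranks were 33.3, 62.3, 68.7, 65.3, 57.0 and 22.7, and CFP1 was called in 0 of 6 KO libraries. Srsf2, Hnrnpa1, Hnrnpa2b1, Hnrnpc and Ddx5, an RNA helicase, had CFP1 in 6 of 6 WT and 6 of 6 KO libraries. Mettl3, the catalytic subunit of the m6A methyltransferase, was the single marked member with 0 of 6 in WT, at a H3K4me3 width of 988.5 b.

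Genes of quiescence also had CFP1 in most libraries. Of 12 marked KLF factors and quiescence genes 7 had CFP1 in 6 of 6 and 0 in 0 of 6, against backgrounds of 28.1% and 25.3%. Their median H3K4me3 width was 2162.5 b, and the median number of KO libraries with CFP1 was 2. The 7 were Klf13, Foxo1, Foxo3, Btg1 and Tob1, both anti-proliferative factors, Cdkn1b, the p27 cell cycle inhibitor, and Tsc1, an inhibitor of mTORC1. At Foxo3 CFP1 ranks were 60.2, 53.3 and 30.1 in replicate 1 and 30.9, 57.8 and 44.3 in replicate 2, and the summit lay at −1366 to −789 b. CFP1 was also called in the Foxo3 region in 5 of 6 KO libraries. At Klf13 the summits fell at 2 places, at 53 and 92 b in the NKp46+ libraries and at −369 or −368 b in the other 4. Klf2, which restrains lymphocyte activation, and Klf6 had CFP1 in 5 of 6 and Klf3 in 3.

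Early response and clock genes had CFP1 in 6 of 6 at shares near the background of 28.1%. Of 15 marked AP-1 and early response genes 4 had CFP1 in 6 of 6, namely Jun, Fosl2, Atf3 and Nfkbia, the IκBα inhibitor of NF-κB. Zfp36, which destabilises cytokine mRNAs, and Dusp2, a MAP kinase phosphatase, had 0 of 6, and Fos had 5. Of 11 marked circadian clock genes 4 had 6 of 6. These were Cry1, a repressor of the clock, Nr1d2 (REV-ERBβ), Tef and Dbp, both PAR bZIP output factors. At Cry1 ranks were 80.8 to 96.8, with summits at −224 to −138 b. Npas2, a CLOCK paralogue, had 0 of 6 at a CpG ratio of 0.9499.

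Genes of growth and division had CFP1 in 6 of 6 at 20 to 35.7% of the marked members per list, near the background of 28.1%. For 0 of 6 the background was 25.3%. Of 15 marked cell cycle genes 3 had CFP1 in 6 of 6, Pcna, the replication clamp, Mcm7, a helicase subunit, and Ccne1, cyclin E1. There were 4 with 0 of 6, Mki67, Top2a, Ccnb1 and Mcm3. Mki67, the proliferation marker, had H3K4me3 peaks of 1061 to 2153 b and a CpG ratio of 0.809. Of 13 cytosolic ribosomal protein genes 3 had 6 of 6, Rpl5, Rps6 and Rps19, and 0 had 0 of 6. Of 14 oxidative phosphorylation genes 5 had 6 of 6, among them Cycs, cytochrome c, and 2 had 0 of 6, Sdha and Ndufb8. Of 12 DNA repair genes 3 had 6 of 6, Atm, Xrcc6 and Ercc1, and 4 had 0 of 6, Brca2, Fancm, Lig4 and Ercc2. Of 11 housekeeping genes 3 had 6 of 6, Ppia, Polr2a and Eef1a1, and 4 had 0 of 6, Tbp, Sdha, Gusb and Tubb5.

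Cytokine, receptor and surface genes of ILC3s that carried the mark did so in wide peaks at CpG-poor starts, and none of them had CFP1 in every library. Il22, Il17a and Csf2, cytokine genes of ILC3s, had no H3K4me3 peak at the start in any WT library, and Il17f had a peak of 530 b in 1. Of 11 marked cytokine, receptor and surface genes 0 had CFP1 in 6 of 6 and 5 had it in 0 of 6, against backgrounds of 28.1% and 25.3%. Their median H3K4me3 width was 2348 b, against 1265 b over all 7369 genes, and their median CpG ratio 0.231, against 0.824. The 5 with none were Cxcr6, a chemokine receptor, Il1r1, Il2ra, Il2rg, the common γ chain, and Il18r1. Il7r, the receptor for interleukin-7 on which ILCs depend, had H3K4me3 widths of 3118, 579 and 3146 b in replicate 1 and 3271, 3210 and 3213 b in replicate 2, the NKp46+ library of replicate 1 being far narrower than the rest. Its CpG ratio was 0.0647, with 1 CG in 300 b. CFP1 was called there in 0 of 3 libraries of replicate 1 and in 3 of 3 of replicate 2, at ranks of 75.9, 82.8 and 71.6 and 72 to 146 b downstream of the start, and in 2 of 6 KO libraries. At Il23r, the receptor that drives interleukin-22 production, CFP1 was likewise called in the 3 replicate 2 libraries alone, 1451 to 2243 b downstream and at ranks of 9.32 to 25.7. Ltb, a lymphotoxin subunit, and Kit, the stem cell factor receptor, had CFP1 in 3 of 6, Tnfsf11 (RANKL) in 2 and Ccr9 in 1. Lta, lymphotoxin alpha, was marked in 5 of 6 libraries by weak H3K4me3 peaks (ranks 0.651 to 3.71) and had CFP1 in all 5, at ranks of 28.8 and 0.137 in the CCR6+ and NKp46+ libraries of replicate 1 and 89.5, 89.6 and 92.5 in replicate 2. CFP1 was called at Lta in 0 of 6 KO libraries.

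Marked transcription factor genes of ILC3s had wide H3K4me3 peaks too, at starts richer in CpG, with CFP1 in every library at 1 of them. Rora carried no mark. Of 9 marked members 1 had CFP1 in 6 of 6 and 2 in 0 of 6, against backgrounds of 28.1% and 25.3%. Their median width was 2025.5 b and their median CpG ratio 0.711. Stat3, which acts below the interleukin-23 receptor, was the one with 6 of 6. Its CFP1 ranks were 68.6, 73.6 and 51.4 in replicate 1 and 81.9, 89.3 and 76.6 in replicate 2, with summits at −192 to −46 b, and CFP1 was called there in 6 of 6 KO libraries. Tcf7 (TCF-1), needed for ILC development, had H3K4me3 widths of 2534, 1833, 2395, 2888, 2616 and 2711 b, a CpG ratio of 1.03 and CFP1 in 0 of 6. Tbx21 (T-bet), which drives the NKp46+ fate, also had 0 of 6. Id2, an inhibitor of E proteins, had CFP1 in the CCR6+ library of replicate 2 alone. Runx3, Ikzf1 and Batf had 1 of 6 each, and Gata3 and Runx1 2 of 6 each. Of 5 marked genes that mark the NKp46+ subset 4 had CFP1 in 0 of 6 (Tbx21, Ifng, Il12rb2 and Nkg7), against the background of 25.3%. Cxcr3 had it in 1. Of 2 marked genes of the CCR6+ subset, Tnfsf11 had 2 and Itgb7 1. Markers of T cells were in part marked, with Cd3e and Zap70 in 6 of 6, and CFP1 was called at Cd3e in 0 of 6 and at Zap70 in 1 of 6.

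Some CpG-rich starts carried no mark. Of 14 developmental CpG island genes that are silent in lymphocytes, 12 had H3K4me3 in 0 of 6 libraries and 0 in 6 of 6. Among them were Pax6, an eye and brain regulator with a CpG ratio of 0.998, Sox1 with 1.07 and Gsc with 0.934, ratios as high as those of marked genes with CFP1 in 6 of 6. Foxa2 was marked in 1 library and Lhx2 in 3, and CFP1 was called at neither in the libraries where they were marked. All 15 tissue-restricted genes, such as Alb (albumin) and Myh6 (cardiac myosin), had H3K4me3 in 0 of 6. Of all 17274 coding genes with a start in the reference, 8353 had H3K4me3 in 0 of 6 libraries. Their median CpG ratio was 0.251, and 953 of them had a ratio of 0.75 or more.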

How the data were processed

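CUT&Tag peak lists of 24 libraries were used, 12 groups of 2 (genotype, subset and antibody, from the sample titles); the gene that drives the Cre is not reported here. The build mm10 and the tools MACS2 2.2.7.1, Bowtie2 2.3.5.1, fastp 0.19.7, Picard and ChIPseeker 1.28.3 are named in the submitters' processing notes; the sources used here give no settings and no control library. The deposited narrowPeak lists, 1 for each library, hold the authors' fold enrichment per peak as a ratio, −log10 values of p and q, and the summit as an offset from the peak's start. The smallest deposited −log10 q per list was 1.30 to 1.42. The lists hold no counts: depth is unknown, and its part in list length and width was not tested.

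Ranks are percentiles of the authors' fold within a list. Gene starts and 300 b promoters came from RefSeq (GRCm38.p6, the assembly behind mm10): 17274 of 21631 coding genes had a start there, starts on chromosome 18 were not used here, and a peak at any other gene counts as one without a start. For the gene by gene counts each gene had 1 start, that with the most H3K4me3 libraries, then the most CFP1 libraries, then the highest CpG ratio. Of 371 genes on the lists 279 had a start.

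Pairs were compared by exact two-sided sign-flip tests and groups by exact two-sided permutation within subsets (216 arrangements, 54 without the 2 long KO lists), with Benjamini-Hochberg adjustment over 9 planned, 7 added paired and 15 added WT-KO comparisons, at a threshold of 0.05. The added comparisons were chosen after seeing the data. The scripts were tested on simulated peaks. The alternatives were equal list lengths, higher fold, width and overlap minimums, other H3K4me3 libraries, width groups, a replicate block and leaving out libraries. The members, lists and rules were chosen with earlier results of these data known. Regions named were, among those marked in 6 of 6 WT libraries, the 8 highest in CFP1 rank with CFP1 in 6 of 6, the 8 highest in H3K4me3 rank with 0 of 6, the 6 widest of each kind, the 6 highest also called in 6 of 6 KO libraries and the 4 with the most CFP1 peaks; per list, at least the members with the most and the fewest CFP1 libraries. Predicted genes were passed over. Computations ran in Python 3.11.15 (SciPy 1.17.1, NumPy 2.4.6, pandas 2.3.3; plots with matplotlib 3.10.9).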

Additional observations from a re-analysis of the deposited data

How the results depend on the processing

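The difference between WT and KO in the share of CFP1 summits inside H3K4me3, which passed no test, was −0.692 points and changed sign under 4 settings: 0.442 with peaks of a fold enrichment of 5 or more, 7.20 with lists of equal length, 3.26 against the H3K4me3 library of the other replicate number and 0.0447 against the union of both; the cause was not tested. The H3K4me3 rank difference lost its call with lists of equal length (14.4, exact sign-flip test, adjusted p = 0.0804) and among peaks that hold a gene start (6.26, adjusted p = 0.281); the cause was not tested. The other tested alternatives of the 9 planned comparisons kept direction and side of the threshold (59 values), among them the removal of all CFP1 peaks shared with KO lists. Each replicate number taken alone gave 18 values with no test; of these the distance difference turned from −15 to 5 b in replicate 1, and the others kept their sign.

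Leaving out a replicate leaves 5 pairs, whose smallest sign-flip p is 0.0625, so calls were lost by construction (adjusted p 0.0703 to 0.0804). Over these fits the log2 width ratio of CFP1 to H3K4me3 was −0.864 to −0.781, the depth difference −0.0578 to −0.0455, the distance difference −22 to −9.8 b, the log2 width ratio with against without CFP1 0.467 to 0.524 and the H3K4me3 rank difference 17.9 to 23.5. The CFP1 rank difference was 32.6 to 35.9, that of gene starts 21.5 to 25.8 points and that of CpG ratios 0.0962 to 0.102. The share of summits inside, WT against KO, was −1.56 to 0.653 points, positive only without replicate 2 of CCR6+.

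With a replicate block the log2 width ratio was −0.81 (exact test, adjusted p = 0.0402) and the WT-KO difference in summits inside −0.692 points (exact test, p = 0.75), so no call changed. The other comparisons are made within pairs already. Between the 2 replicate numbers, log2 widths of CFP1 and H3K4me3 peaks of the same region changed together with r = −0.0410 (CCR6+), 0.131 (NKp46+) and 0.00392 (DN) across regions, so the numbers were not shown to pair the libraries.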
